A study of Bos taurus with 9 samples.

Results

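Receptors of innate immunity and a circulating protease inhibitor were followed across the arrays of salt-treated bovine nucleus pulposus cells: the complement receptor gene C5AR2, the chemokine-scavenging receptor gene ACKR4, the bacterial lipopolysaccharide co-receptor gene CD14, and SERPINA1, which encodes alpha-1 antitrypsin. The members are all probe sets that the platform annotation gives to only 1 of these 4 symbols, so 4 genes of the 9155 that have such a probe set. They hold 6 of the 24016 probe sets outside the manufacturer's controls: 1 for C5AR2, 1 for ACKR4, 2 for CD14 and 2 for SERPINA1. The 4 genes were picked because they stood higher after 24 h of salt on these arrays, so their values at 24 h and at 5 h are a description and carry no test. The study put nucleus pulposus cells from caudal discs of young calves, grown in DMEM with serum, into medium brought to 500 mOsm/kg with salt, to see how transcript levels respond to hyperosmotic stress. Its 9 arrays are 3 of cells in salt for 5 h, 3 of cells in salt for 24 h and 3 of untreated control cells, labelled as biological replicates 1 to 3 in each group. The labels give neither the number of animals behind the cultures nor a time for the control, and 1 set of control arrays is compared with both salt groups, so time in culture and salt cannot be told apart and p-values measure only the spread between these cultures.

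C5AR2 is a seven-transmembrane receptor for the complement fragment C5a that does not couple to G proteins in the usual way, and it sits beside C5AR1, the classical C5a receptor, as a decoy or modulator. ACKR4 is an atypical chemokine receptor that takes up and degrades CCL19, CCL21 and CCL25 without classical G protein signalling. CD14, a glycolipid-anchored or soluble protein best known from monocytes, receives lipopolysaccharide from the carrier LBP and hands it to the TLR4 and MD-2 complex. Alpha-1 antitrypsin is a secreted serpin that inhibits neutrophil elastase; the liver is its main source, and it is an acute phase protein that IL6 induces through STAT3 in human cells. The intervertebral disc has no blood vessels in its core, and its cells live under an osmotic pressure set by aggrecan, so salt stress is a physiological load for them.

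The arrays had similar brightness, with a median intensity between 67.1 and 84.5 and a 25th percentile between 15.1 and 18.6 on the linear scale the authors deposited. In a principal component analysis the arrays numbered 3 lay apart from the rest on component 1 (47.7% of variance) and the 24 h arrays on component 2 (31.1%), with control replicate 1 at a score of 0.01 against 22.3 and 29.6 for the other controls. Arrays with the same number deviated together from their group means, with correlations of 0.564 to 0.896 over 9 pairs, so values with the replicate number as a block are given where they change a call. The aldose reductase gene AKR1B1, a known target of hypertonicity that served as a check on the treatment, rose by 1.67 ± 0.18 on the log2 scale at 24 h (SE, 3 arrays per group, adjusted p = 0.00378) and stood at 0.40 ± 0.18 at 5 h (adjusted p = 0.74, and 0.0279 with the replicate block). Keratins often used as nucleus pulposus markers, KRT8, KRT18 and KRT19, were dim, between 2.1 and 31.8 on every array. Of the other markers on that list NCAM1 was also dim, while HIF1A, CDH2 and BASP1 were bright, at means of 5278, 1387 and 5314 at 24 h. The aggrecan gene ACAN lay between 497 and 4026. Its log2 difference was 1.35 ± 0.56 for 24 h minus control (adjusted p = 0.187, and 0.00041 with the block). RNA per cell and the number of cells of a type cannot be told apart in these bulk samples.

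C5AR2 (NCBI gene 522144) had intensities of 1338, 1171 and 1688 on the arrays of salt 24 h replicates 1, 2 and 3, against 152.5, 108.4 and 257.8 on the control arrays. All 3 of the 24 h arrays lay above all 3 controls, and the lowest 24 h value was 4.54 times the highest control value. At 5 h the intensities were 156.4, 88.6 and 248.6, a range that overlapped that of the control arrays. The group means were 1399 ± 264 at 24 h and 173 ± 77 in control (SD, n = 3 each), a ratio of 8.09, and 165 ± 80 at 5 h. On the log2(intensity + 16) scale the difference was 2.97 ± 0.38 for 24 h minus control and -0.09 ± 0.38 for 5 h minus control (SE). Within each group replicate 3 had the highest and replicate 2 the lowest intensity, so the order of the replicate numbers was the same in the 3 groups.

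ACKR4 (NCBI gene 281672) had intensities of 284.8, 61.3 and 401.8 at 24 h, against 11.7, 7.6 and 14.4 in control. The groups did not overlap, but the 24 h arrays differed among themselves by 6.55 times, with replicate 2 far below the others, the widest 24 h spread of the 6 probe sets. At 5 h the values were 25.8, 17.2 and 24.9, all above the controls, with a ratio of means of 2.02. Every control array read ACKR4 below its own 25th percentile, so the log2 difference of 2.98 ± 0.53 for 24 h minus control is understated by the pseudocount of 16, and it was 4.02 with a pseudocount of 1 and 1.86 with one of 64. The difference was 0.50 ± 0.53 for 5 h minus control, and 0.97 and 0.20 with pseudocounts of 1 and 64. Without salt 24 h replicate 2 it was 3.71 at 24 h, and without salt 24 h replicate 3 it was 2.49.

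CD14 (NCBI gene 281048) was read by 2 probe sets, both higher at 24 h and unlike in size. The brighter had intensities of 294.2, 232.7 and 329.8 at 24 h, against 99.2, 83.4 and 104.1 in control, with no overlap and a ratio of means of 2.99. At 5 h it stood at 69.8, 65.5 and 83.2, and all of these lay below the lowest control value, by 0.2 for the closest pair. Its log2 difference was 1.43 ± 0.18 for 24 h minus control and -0.33 ± 0.18 for 5 h minus control. The dimmer had 218.6, 197.6 and 114.1 at 24 h, against 89.4, 89.0 and 66.2 in control, with a lowest 24 h value 1.28 times the highest control value. Its 5 h values of 81.4, 89.0 and 52.9 overlapped the controls, and the log2 differences were 0.95 ± 0.27 at 24 h and -0.12 ± 0.27 at 5 h. The probe sets disagreed on the order of the replicate numbers: replicate 3 was the highest of its group in all 3 groups on the brighter and the lowest in all 3 groups on the dimmer.

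SERPINA1 (NCBI gene 280699) was also read by 2 probe sets. The brighter had intensities of 627.5, 260.2 and 698.6 at 24 h, against 35.9, 30.3 and 26.2 in control. The lowest 24 h value was 7.25 times the highest control value, the widest such gap among the 6 probe sets. At 5 h the values of 27.4, 26.2 and 37.5 overlapped those of control. Means were 529 ± 235 at 24 h and 30.8 ± 4.9 in control (SD, n = 3 each). The log2 difference was 3.43 ± 0.34 for 24 h minus control and -0.02 ± 0.34 for 5 h minus control. The first was rank 5 among the rises of the 18012 probe sets that passed the filter on dim values, and the other member probe sets ranked 14 to 705. Since the genes were picked for their rise at 24 h, nothing is read from these ranks. The dimmer had 71.8, 37.8 and 77.4 at 24 h, against 4.1, 9.5 and 2.3 in control, which were below the 25th percentile on all 3 control arrays. Its 5 h values were 9.3, 18.4 and 2.6, and its log2 differences were 1.85 ± 0.28 at 24 h and 0.26 ± 0.28 at 5 h.

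**Figure D1:**
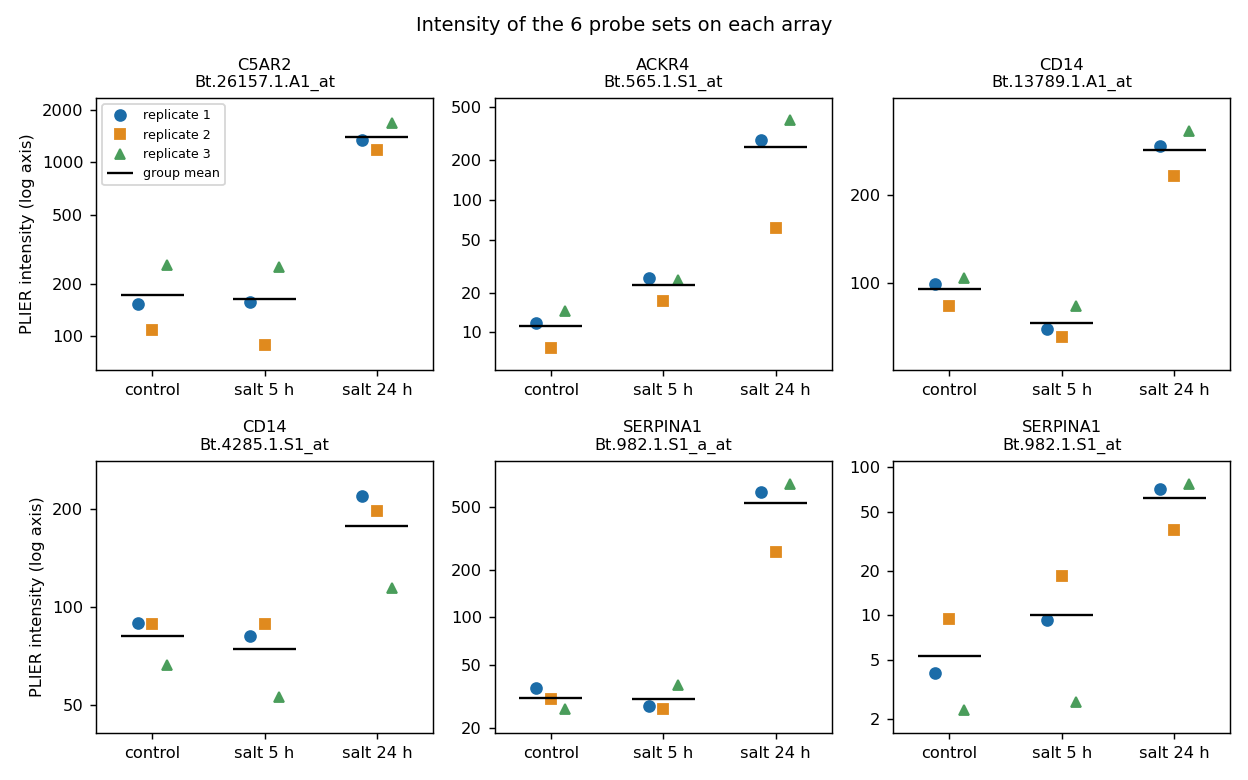
PLIER intensity on a log axis for each of the 6 probe sets, in control, salt 5 h and salt 24 h cells, with a marker for each replicate and a bar for the mean of 3 arrays; the brighter probe set of CD14 and of SERPINA1 comes before the dimmer. All 3 arrays at 24 h lie above all control and 5 h arrays in every panel, and replicate 2 is the lowest 24 h array in every panel except that of the dimmer CD14 probe set, where replicate 3 is.

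In all 6 probe sets the 3 arrays at 24 h lay above the 3 control arrays, as they did for 13.9% of all probe sets tested, and above the 3 arrays at 5 h, as for 18.1%. Since the genes were picked on this contrast, nothing is read from that count. At 5 h, 4 of the 6 overlapped the controls; ACKR4 lay above them (4.04% of all probe sets did so) and the brighter CD14 probe set below (6.6%). All 6 probe sets passed the filter, but ACKR4 and the dimmer SERPINA1 probe set did so only through their 24 h arrays: without these, their log2 means were 5.01 and 4.53, under the cut at 5.05.

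Compared within a replicate number, the 24 h differences were more alike in some members than in others. C5AR2 had log2 differences of 3.01, 3.25 and 2.64 for numbers 1, 2 and 3, and the brighter CD14 probe set had 1.43, 1.32 and 1.53, the narrowest range of the 6. ACKR4 stood at 3.44, 1.71 and 3.78, and the brighter SERPINA1 probe set at 3.63, 2.58 and 4.08. Number 2 thus had the smallest difference in ACKR4 and in both SERPINA1 probe sets (1.08 against 2.13 and 2.35 in the dimmer). It also had the smallest, by little, in the brighter CD14 probe set, and the greatest in C5AR2. In the dimmer CD14 probe set the smallest was number 3, at 0.66.

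**Figure D2:**
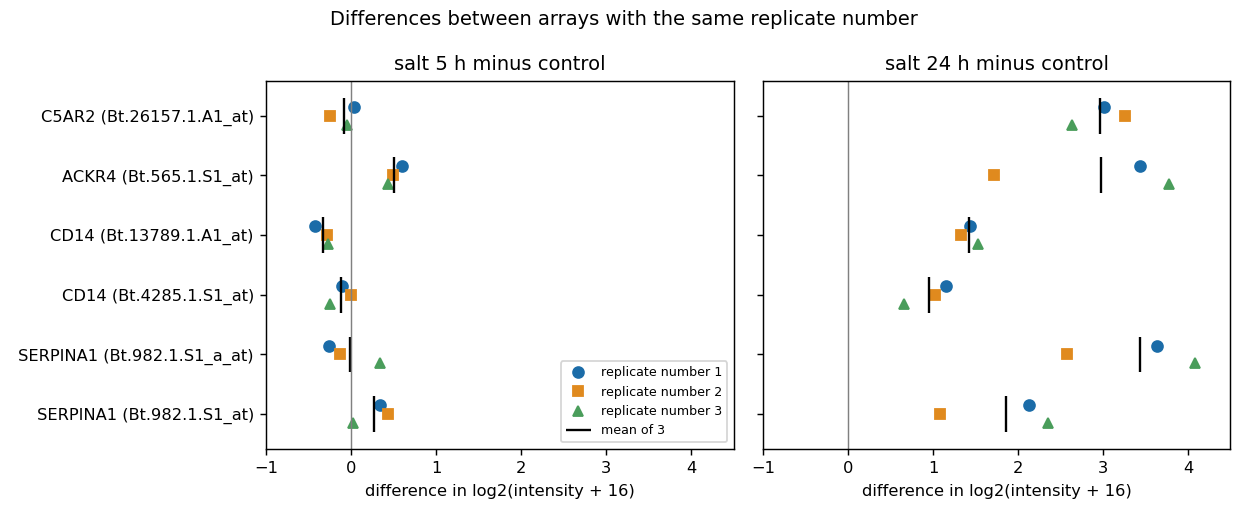
Difference in log2(intensity + 16) between arrays that share a replicate number, for salt 5 h minus control (left) and salt 24 h minus control (right), with a marker per number and a bar for the mean of 3. The 5 h differences lie between -0.43 and 0.59 and the 24 h differences between 0.66 and 4.08; number 2 lies apart from numbers 1 and 3 in ACKR4 and SERPINA1.

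Over the 9 arrays, which fall into groups, the log2 values of the probe sets had Pearson correlations of 0.646 to 0.977 across 15 pairs. With the group means taken out, ACKR4 and the brighter SERPINA1 probe set still varied together (r = 0.94), as did the brighter CD14 probe set with SERPINA1 (0.804), ACKR4 (0.844) and C5AR2 (0.78). Correlations were lower for C5AR2 with ACKR4 (0.417) and with the brighter SERPINA1 probe set (0.317), and for the brighter CD14 probe set with the dimmer SERPINA1 probe set (0.022). The 2 CD14 probe sets ran against each other (-0.731), and C5AR2 ran against the dimmer probe sets of CD14 (-0.752) and of SERPINA1 (-0.539). These are descriptions over arrays of which those with the same replicate number deviate together.

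Among 7779 other genes, the ones most like each member over the 9 arrays were found by Pearson correlation of log2 values, each gene taken by its brightest probe set. The members were picked for a step at 24 h, so any gene with such a step scores high, and shared regulation was not tested. The members themselves ranked from 10 (SERPINA1 for ACKR4, r = 0.959) to 314 (ACKR4 for C5AR2, r = 0.901) in each other's order. Those most like C5AR2 were the interferon-induced GTPase MX1 (r = 0.9931), KLHL24 (0.9911), the small leucine-rich proteoglycan decorin, DCN (0.991), and MADD (0.9907). MX1 averaged 274 at 24 h and 66.5 in control. Those most like ACKR4 were CARMIL1 (0.9836), the C1 inhibitor gene SERPING1 (0.9819), the DNA glycosylase NEIL2 (0.9818) and the copper-carrying ferroxidase ceruloplasmin, CP (0.9811). CP was also the gene most like SERPINA1 (0.9885), followed by the Golgi mannosidase MAN2A2 (0.9873), TCAF2 (0.9872) and TSPAN1 (0.9871). Those most like CD14 were the tyrosylprotein sulfotransferase TPST1 (0.9961), TCAF2 (0.9914), the efflux transporter ABCG2 (0.9866) and the collagen-binding integrin chain ITGA10 (0.9861). ITGA10 averaged 866 at 24 h and 140 in control.

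The wider pathways were covered by 11 lists of related genes, which left the 4 members out. Of 140 distinct genes tested, 12 rose at 24 h (8.57%) and 6 fell (4.29%), where 4.28% of all probe sets tested rose and 4.32% fell in limma at an adjusted p under 0.05. The median log2 difference was 0.11 for these genes and 0.02 over all probe sets. Each list gene was taken by its brightest probe set, while the shares of all include dimmer and unannotated ones, so they are not like for like. The lists were also chosen with earlier results of these data known, so no enrichment is read from these shares. At 5 h 1 of the 140 rose (0.714%, against 0.233% of all) and 0 fell (0.25% of all), and with the block 2 rose and 1 fell (2.45% and 3.41% of all); at an unadjusted p under 0.05, 4 were higher and 4 lower. Between the salt groups 16 were higher at 24 h than at 5 h (11.4%) and 7 lower (5%), against 8.01% and 6.15% of all probe sets. With the replicate block 36 rose and 23 fell at 24 h (18.3% and 17.5% of all probe sets did so). With each array centred on its median 10 rose and 9 fell, where 503 rose and 827 fell among all 18012 probe sets tested. The total of 18 calls was 4 without salt 24 h replicate 1, 5 without control replicate 2, 6 without control replicate 3 and 11 without salt 24 h replicate 3.

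Around C5AR2, the genes of both proteases of C1, the complex that starts the classical complement pathway, rose at 24 h, together with that of their inhibitor. The genes of the recognition subunit C1q were not called: C1QA stood at 0.08 ± 0.18 (adjusted p = 0.885) and C1QB at 0.12 ± 0.18 (adjusted p = 0.786), and C1QC was too dim to be tested. The protease gene C1S had intensities of 633.2, 519.6 and 732.2 at 24 h, against 191.9, 234.3 and 190.0 in control, and rose by 1.53 ± 0.22 on the log2 scale (adjusted p = 0.0069). Its partner C1R had 243.6, 162.3 and 316.2 at 24 h, against 49.4, 93.9 and 110.9 in control, and rose by 1.36 ± 0.32 (adjusted p = 0.0347). The groups did not overlap for either gene. SERPING1, the serpin that inactivates both proteases, had 430.3, 250.2 and 508.4 at 24 h, against 135.2, 129.1 and 185.2 in control, and rose by 1.27 ± 0.26 (adjusted p = 0.0223). A dimmer SERPING1 probe set stood at 1.17 ± 0.51 (adjusted p = 0.206, and 0.00071 with the block). Of 13 tested complement components 2 rose and 0 fell (6 and 0 with the block; list median 0.13), and of 8 complement regulators and receptors SERPING1 alone rose and 0 fell (2 and 1 with the block; median 0.31). The central component C3 stood at -0.18 ± 0.16 (adjusted p = 0.601) at 24 h. C5, the source of the C5a ligand, was too dim to be tested, at 15.9 ± 1.3 at 24 h and 13.6 ± 3.4 in control, and C5AR1 and C3AR1 were not analysed here. At 5 h 0 complement genes were called in limma, 0 at an unadjusted p under 0.05 and 0 with the block. The call of C1R ended in 6 of the 9 refits that left out 1 array (highest adjusted p = 0.118, without salt 24 h replicate 1) and when each array was centred on its median, and that of SERPING1 in 4 (0.0931, without control replicate 2), while that of C1S was kept in all 9.

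Around ACKR4, ligands and other receptors were mostly dim or not called. The ligands CCL19 and CCL21 were too dim to be tested, at 8.33 ± 1.4 and 17.7 ± 1.4 at 24 h and 9.47 ± 0.35 and 15.9 ± 1.7 in control. CCL25 stood at -0.41 ± 0.16 at 24 h (adjusted p = 0.153, and 0.0207 with the block), and its other probe sets at -0.12 and 0.20. Of 6 tested chemokine receptors 1 fell at 24 h and 0 rose (2 and 0 with the block; median -0.15). It was CXCR4, the receptor for CXCL12, which had 55.6, 43.1 and 71.6 at 24 h, against 140.2, 116.3 and 141.9 in control, and fell by 1.05 ± 0.23 (adjusted p = 0.0274). ACKR3, an atypical receptor that scavenges CXCL12, was bright, at 2312 ± 279 at 24 h and 3081 ± 309 in control, with a log2 difference of -0.41 ± 0.13 (adjusted p = 0.0882, and 0.0137 with the block). ACKR2, the scavenger of inflammatory CC chemokines, stood at 0.03 ± 0.18 (adjusted p = 0.967), near the floor.

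Of 15 tested chemokine ligands 2 rose and 1 fell at 24 h (7 and 2 with the block; median 0.52). CXCL12 had 2232, 3032 and 2036 at 24 h, against 3754, 4429 and 3895 in control, and fell by 0.74 ± 0.15 (adjusted p = 0.0212), so ligand and receptor were both lower. The neutrophil-attracting chemokine genes GRO1 and CXCL3 rose by 1.89 ± 0.42 (adjusted p = 0.0298) and 1.18 ± 0.17 (adjusted p = 0.00728). CXCL3 was near the floor in control, at 9.2, 10.5 and 11.8, and read 40.2, 39.5 and 53.6 at 24 h. At 5 h GRO1 rose by 2.74 ± 0.42 (adjusted p = 0.038, lost with each array centred on its median), and CXCL3 stood at 0.97 ± 0.17 at 5 h (adjusted p = 0.0569, and 0.00196 with the block). Dimmer GRO1 probe sets stood at 1.51 (adjusted p = 0.063, and 0.00228 with the block), 1.565 (0.0595, and 0.00246 with the block) and 1.807 (0.0132) at 24 h. At 5 h they stood at 2.71, 2.79 and 2.84 (adjusted p = 0.0388, 0.038 and 0.00911). Chemokine genes of this group are similar in sequence and their probe sets may share signal. Leaving out 1 array ended the 24 h calls of CXCR4 in 5 of 9 refits (highest adjusted p = 0.0954, without salt 24 h replicate 1), of CXCL12 in 4 (0.0891, without control replicate 2) and of GRO1 in 5 (0.107, without control replicate 2), and the 5 h call of GRO1 in 7 (0.142, without control replicate 1). That of CXCL3 was kept in all 9.

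Around CD14, the gene of the protein that loads it rose at 24 h, and those of the receptors TLR4 and TLR2 and their adaptor were not called. LBP, the lipopolysaccharide-binding protein, had intensities of 75, 35 and 143 at 24 h, against 18.2, 12.7 and 3.9 in control, and rose by 1.75 ± 0.38 (adjusted p = 0.0278). It was near the floor at 5 h also, at 13.7, 5.5 and 11, and like ACKR4 it passed the filter only through its 24 h arrays. It was the 1 gene that rose of 18 tested in Toll-like receptor and lipopolysaccharide signalling, and 0 fell (5 and 2 with the block; median 0.06). TLR4 was dim, at 19.9 ± 2.0 at 24 h and 15.8 ± 0.8 in control (log2 difference 0.17 ± 0.14, adjusted p = 0.539). TLR2, which also uses CD14, stood at 0.04 ± 0.20 (adjusted p = 0.964), and the adaptor MYD88 at 0.28 ± 0.35 (adjusted p = 0.736). LY96, which encodes MD-2, was not analysed here. Of 16 genes of the NF-kB core and its feedback 2 rose and 0 fell (6 and 2 with the block; median 0.18): the inhibitor NFKBIA by 1.18 ± 0.31 (adjusted p = 0.0495) and the adaptor TRAF1 by 0.78 ± 0.15 (adjusted p = 0.0199). The call of LBP ended in 4 of 9 refits without 1 array (highest adjusted p = 0.094, without salt 24 h replicate 1), that of TRAF1 in 4 (0.0878, without salt 24 h replicate 1) and that of NFKBIA in 7 (0.172, without control replicate 2); with each array centred on its median NFKBIA was not called.

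Around SERPINA1, genes of 2 serum proteins rose at 24 h, and that of IL6, the cytokine that drives the acute phase response in liver, fell. CP had 1062, 309.6 and 1121 at 24 h, against 104.5, 83.6 and 85.8 in control, and rose by 2.78 ± 0.43 (adjusted p = 0.00936). Its 5 h values of 99.9, 80.1 and 91.5 overlapped control. The dimmer CP probe sets were near the floor in control, at means of 6.87 and 7.53, and stood 2.45 and 2.25 higher at 24 h. Like LBP, they passed the filter on dim values only through their 24 h arrays. Their differences are thus a description and no separate support for the rise of CP. The gene of the thyroxine carrier transthyretin, TTR, whose plasma level falls in the human acute phase, rose by 1.87 ± 0.46 (adjusted p = 0.0409), with 135 ± 72 at 24 h and 25.9 ± 23 in control. Of 13 tested acute phase genes these 2 rose and 0 fell (2 and 1 with the block; median 0.13). IL6 had 291.7, 62.7 and 404.3 at 24 h, against 2884, 1189 and 3159 in control, and fell by 3.36 ± 0.59 (adjusted p = 0.0145). STAT3, the transcription factor downstream of IL6 family receptors, had 1004, 706.1 and 1068 at 24 h, against 428.2, 396.3 and 586.7 in control, and rose by 0.95 ± 0.22 (adjusted p = 0.0319). A dimmer STAT3 probe set stood at 0.72 ± 0.20 (adjusted p = 0.0585, and 0.00269 with the block). Of 14 tested genes of the IL6 family and STAT3 the 2 calls were IL6 and STAT3 (2 rose and 2 fell with the block, median 0.13).

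SOCS3, the feedback inhibitor of that pathway, stood at 0.11 ± 0.52 at 24 h (adjusted p = 0.956) and CEBPB, a factor of acute phase promoters, at 0.30 ± 0.23 (adjusted p = 0.531). CEBPD, its relative, had 3338, 1808 and 3037 at 24 h, 527, 858.7 and 452.4 at 5 h, and 1175, 1247 and 1461 in control. On this brightest probe set it thus lay below control at 5 h and above it at 24 h on every array. The log2 differences were -1.11 ± 0.28 (adjusted p = 0.201, and 0.0416 with the block) and 1.02 ± 0.28 (adjusted p = 0.0591, and 0.0144 with the block). A dimmer probe set had the same pattern, at -1.31 and 1.17. The dimmest overlapped control at both times, at -0.305 for 5 h and 0.55 for 24 h (adjusted p = 0.426 at 24 h, and 0.0451 with the block). The call of IL6 ended in 1 of 9 refits (adjusted p = 0.0525, without control replicate 3), that of STAT3 in 5 (highest 0.122, without control replicate 2) and when each array was centred on its median, and that of TTR in 6 (0.13, without salt 24 h replicate 1) and under quantile normalization, while that of CP was kept in all 9. In SERPING1, CP, LBP, STAT3 and IL6 alike, replicate 2 was the lowest of the 24 h arrays, as it was in ACKR4 and SERPINA1. The same held for C5AR2, the brighter CD14 probe set, C1S and C1R, while the dimmer SERPING1 probe set had replicate 3 lowest. Among the control arrays, replicate 2 was also the lowest in SERPING1, CP, STAT3, IL6 and ACKR4, so this order is not particular to the 24 h arrays.

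Of 14 other serpin genes tested at 24 h 2 rose, SERPING1 and the neuronal serpin SERPINI1, which rose by 1.75 ± 0.31 (adjusted p = 0.0145), and 0 fell (4 and 2 with the block; median 0.14). The collagen chaperone SERPINH1 stood at -0.81 ± 0.22 (adjusted p = 0.0542, and 0.000669 with the block). SERPINF1 was too dim to be tested, at 18.4 ± 4.1 at 24 h and 10.3 ± 6.0 in control, and SERPINA3 was not analysed here. Of 9 tested serine proteases and targets 1 fell and 0 rose (3 and 1 with the block; median -0.05), the urokinase gene PLAU, by 0.91 ± 0.19 (adjusted p = 0.0239). Alpha-1 antitrypsin is folded in the endoplasmic reticulum and exported by the LMAN1 and MCFD2 cargo receptor; of 16 tested genes of this quality control and export 2 fell and 0 rose (6 and 2 with the block; median -0.15). They were MCFD2, by 0.66 ± 0.11 (adjusted p = 0.0128), and the chaperone calnexin, CANX, by 0.54 ± 0.13 (adjusted p = 0.034). A dimmer CANX probe set stood at -0.37 ± 0.63 (adjusted p = 0.823, and 0.0663 with the block). The calls of SERPINI1 and MCFD2 ended in 3 of 9 refits each (highest adjusted p = 0.0572, without salt 24 h replicate 1, and 0.057, without control replicate 2), that of PLAU in 4 and that of CANX in 6 (0.0694 and 0.127, both without salt 24 h replicate 1). The call of CANX also ended under centring on the median, quantile normalization, eBayes without trend and the fit to 6 arrays.

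**Figure D3:**
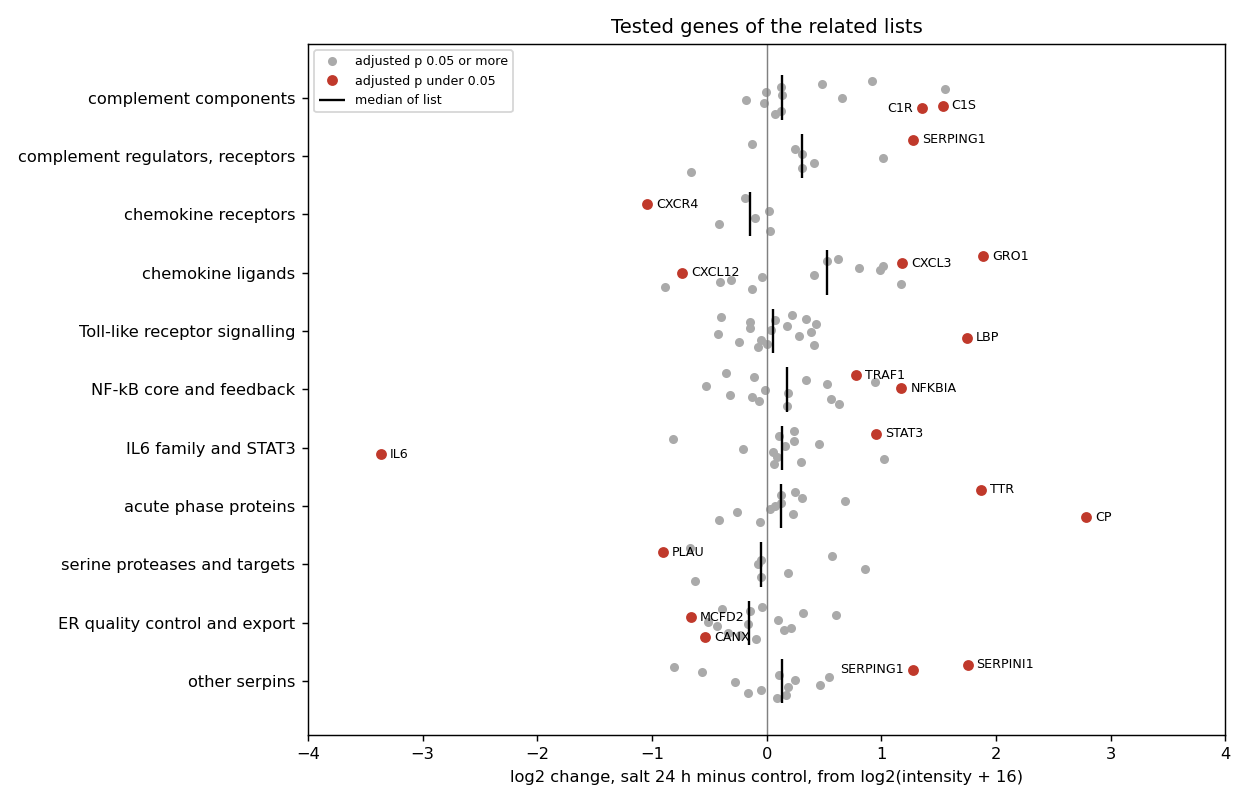
Log2 change for salt 24 h minus control of every tested gene in the 11 related lists, 1 point per gene by its brightest probe set, with genes at an adjusted p under 0.05 in red and named, and a bar at the list median. The list medians lie between -0.15 and 0.52, and the called genes between -3.36 (IL6) and 2.78 (CP).

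**Figure D4:**
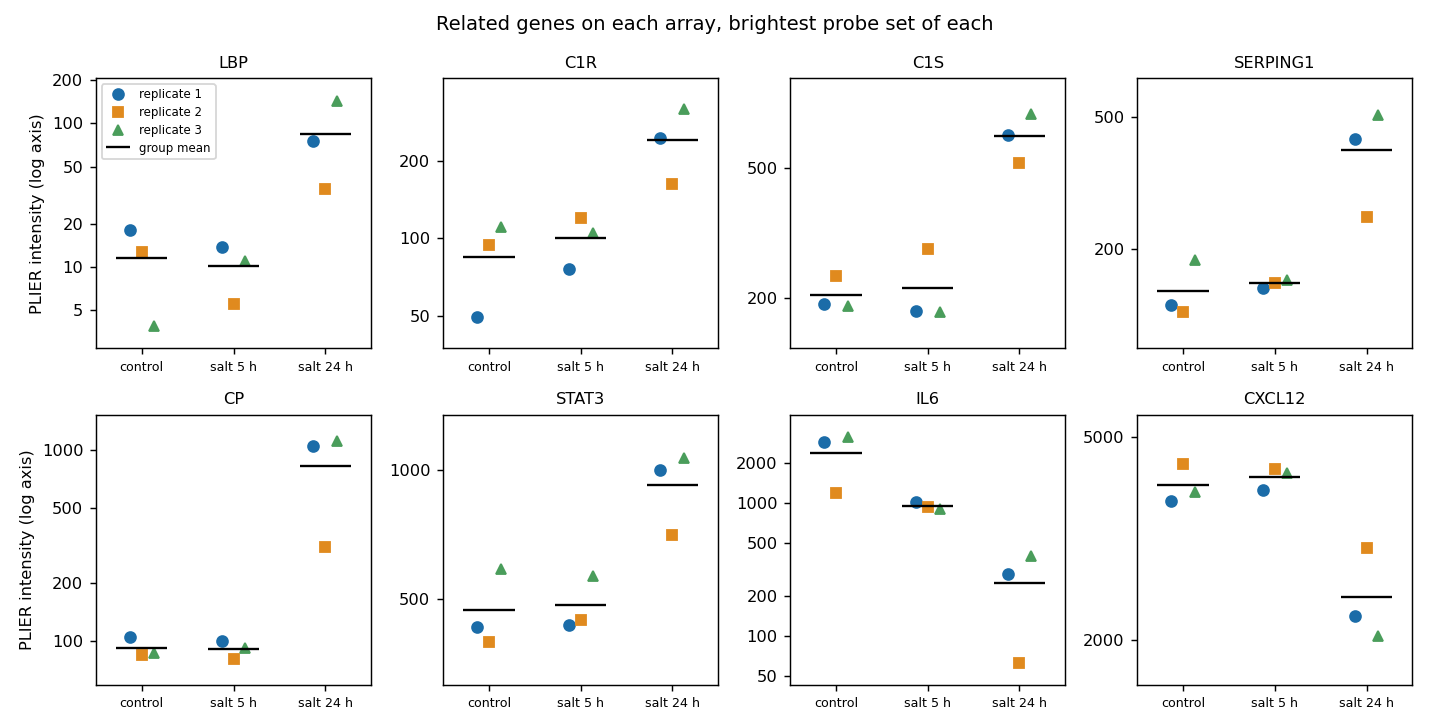
PLIER intensity on a log axis for 8 related genes in control, salt 5 h and salt 24 h cells, with a marker per replicate and a bar for the mean of 3 arrays. LBP, C1R, C1S, SERPING1, CP and STAT3 lie above control on every 24 h array, IL6 and CXCL12 below it, and replicate 2 is the lowest 24 h array in all panels but that of CXCL12.

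Markers of the cells in which these genes are best known were measured beside them. The 5 defining macrophage markers PTPRC, CSF1R, ITGAM, AIF1 and TYROBP lay between 0 and 47.5 on all 9 arrays. The summed intensity of 12 macrophage and monocyte probe sets was 187.6 to 258.6 at 24 h and 175.7 to 207.2 in control, and of the 6 tested 0 rose and 0 fell in limma (0 at an unadjusted p under 0.05); the other 6 were below the 25th percentile on every array. Within each of the 3 replicate numbers this sum was higher at 24 h than in control. At 5 h it was 220 to 245.9, above all controls, with 2 markers higher at an unadjusted p under 0.05 and 0 called; CSF1R stood at 0.67 ± 0.18 (adjusted p = 0.234, and 0.0301 with the block). The part of these signals in the members' values was not tested. Sums at 24 h overlapped those of control for neutrophil markers (147.7 to 202.4 at 24 h and 115.4 to 213.9 in control), lymphocyte markers (188.6 to 245.0 and 204.7 to 256.3) and endothelial markers (427.4 to 610.2 and 327.1 to 725.4). No marker of these 4 cell types was called in either direction at 24 h, with 2 higher and 1 lower at an unadjusted p under 0.05; with the block 1 neutrophil marker rose, and 2 endothelial markers rose and 2 fell. Hepatocyte markers summed to 2914 to 5079 at 24 h and 3779 to 6875 in control: the albumin gene ALB read 1633 to 1857 at 24 h and 2273 to 2479 in control, APOA1 read 801 to 2644 and 753 to 4126, and TTR was the 1 of 7 tested that rose. ALB stood at -0.41 ± 0.11 (adjusted p = 0.0524, and 0.00841 with the block), so that 1 hepatocyte marker rose and 1 fell with the block. The part of these hepatocyte-type signals in the SERPINA1 values was not tested.

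Among markers of disc cells, the sum was 10916 to 12683 at 24 h and 10773 to 12736 in control for nucleus pulposus, 15045 to 19044 and 10885 to 16442 for cartilage-type matrix, and 23795 to 29158 and 23015 to 31898 for annulus and tendon-type fibroblasts. The cartilage sum was higher at 24 h than in control within each of the 3 replicate numbers. No nucleus pulposus or cartilage marker was called at 24 h (with the block 1 rose and 0 fell among the nucleus pulposus markers, and 3 rose and 1 fell among those of cartilage). Of 8 fibroblast markers tested 2 rose and 0 fell (3 and 2 with the block): COL12A1 rose by 1.73 ± 0.18 (adjusted p = 0.00332) and THY1 by 0.74 ± 0.18 (adjusted p = 0.0369), the call of THY1 ending in 7 of 9 refits without 1 array (highest adjusted p = 0.14, without control replicate 2). With the block COL1A1 and COL1A2 fell, by 0.32 (adjusted p = 0.0462, and 0.837 without the block) and 0.22 (0.0263, and 0.396 without).

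Genes that flank the members were taken from their order in RefSeq's annotation of the assembly ARS-UCD2.0. Of 16 flanking genes with a probe set 13 were tested, and 1 rose and 1 fell at 24 h. Of all probe sets tested, 4.28% rose and 4.32% fell, and nothing is read from 1 call in each direction. Beside ACKR4, ACAD11, the adjacent gene, rose by 0.77 ± 0.18 (adjusted p = 0.0332), and DNAJC13, adjacent on the other side, stood at 0.19 ± 0.20 (adjusted p = 0.659). By C5AR2, the adjacent gene DHX34 stood at 0.30 ± 0.23 (adjusted p = 0.517), SAE1, which lies 5 genes away, fell by 0.56 ± 0.14 (adjusted p = 0.0401), and TMEM160, 7 genes away, stood at 0.24 ± 0.13 (adjusted p = 0.325). MEIS3, 2 genes away, stood at 0.68 ± 0.56 (adjusted p = 0.555, and 0.00776 with the block). The nearest measured genes of the serpin cluster, SERPINA11 and SERPINA6, stood at 0.09 ± 0.17 (adjusted p = 0.849) and -0.16 ± 0.14 (adjusted p = 0.601), while SERPINA10 and SERPINA14 were too dim to be tested. Beside CD14, SLC35A4, APBB3, NDUFA2 and IK lay between -0.21 and 0.21, and 0 of these 4 were called. The calls of ACAD11 and SAE1 ended in 6 and 7 of 9 refits without 1 array (highest adjusted p = 0.121, without salt 24 h replicate 1, and 0.144, without control replicate 2).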

How the data were processed

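Biotin-labelled RNA of 9 cultures was hybridised to 1-colour Affymetrix bovine arrays. The authors deposited linear intensities that, per the submitters' processing notes, were summarised by PLIER in Affymetrix Expression Console; whether arrays were normalized to each other is not given in the sources used here. No further normalization was applied. Values were taken as log2(intensity + 16); probe sets with a mean log2 value under the 25th percentile were left out (18012 of 24016 kept) and a model of 3 group means was fitted over the 9 arrays by limma 3.58.1 under R 4.3.3, using lmFit and eBayes with an intensity trend, with Benjamini-Hochberg adjustment over all probe sets tested and calls at 0.05. SE come from this fit. The fit was tested on simulated data with independent noise on each array and changes planted only in probe sets of below-median spread. The simulated arrays lacked the shared deviations of same-number arrays, so that test does not cover them. Symbols came from the platform annotation, and 13263 of 13292 single-gene probe sets matched the ARS-UCD2.0 gene table, used only for names and gene order. A gene is given by its brightest probe set.

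The members, the 11 related lists and the 8 marker lists were chosen with earlier results of these data known. Named genes are the members, 25 genes listed by name, up to 4 called genes per list at 24 h and 2 at 5 h by adjusted p, the 4 genes most like each member, and up to 2 flanking genes on each side. C1QA, C1QB, C1QC, COL1A1 and COL1A2 were added after their values were seen. Replicate numbers were taken as the block, since every same-number correlation of deviations was over 0.1. The labels do not say what arrays with the same number share. The block is an alternative. Others were pseudocounts of 1 and 64, other filters, scalings, eBayes without trend, a fit to 6 arrays, and leaving out each array. The planned search for promoter motifs was not run. The number of arrays limits the precision.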

Additional observations from a re-analysis of the deposited data

Results flagged for a closer look

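The difference between the time points, tested by limma as 24 h minus 5 h, passed an adjusted p of 0.05 for 18 of the 32 tested genes named beside the members, 12 of them higher at 24 h than at 5 h and 6 lower, where 8.01% of all probe sets were higher and 6.15% lower. Of the 32, 21 were called at 24 h against control, many of them named for that, and both contrasts use the same 24 h arrays, so nothing is read from this count. Complement and serum protein genes were higher at 24 h, with log2 differences of 1.49 for C1S, 1.12 for C1R, 1.19 for SERPING1, 2.79 for CP and 1.81 for LBP. CEBPD differed by 2.13 on its brightest probe set (adjusted p = 0.00426), with 5 h values below control and 24 h values above it. Its dimmest probe set, which overlapped control at both times, differed by 0.85 (adjusted p = 0.152, and 0.00502 with the block). STAT3 differed by 0.91, TRAF1 by 0.86, SERPINI1 by 1.72, AKR1B1 by 1.27, COL12A1 by 1.42 and THY1 by 0.67. The genes lower at 24 h than at 5 h were IL6 at -2.16, CXCR4 at -1.03, CXCL12 at -0.80 (adjusted p = 0.0118), SERPINH1 at -0.81, MCFD2 at -0.77 and CANX at -0.65. The highest adjusted p among the 18 was 0.0482, for C1R.

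The brighter CD14 probe set lay below every control array at 5 h and above every control array at 24 h, with a log2 difference of 1.76 for 24 h minus 5 h. That difference was not tested, since the gene was picked for its 24 h values. Outlying arrays were not looked for by a gap test, because each group has 3 arrays.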

How the results depend on the processing

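The differences of the 4 members for 24 h minus control kept their sign in every alternative run. With a pseudocount of 64 CD14 stood at 1.12 and SERPINA1 at 2.55 (main 1.43 and 3.43), and their dimmer probe sets gave 0.95 and 1.85. Leaving out 1 array gave 2.70 to 3.27 for C5AR2, 2.49 to 3.71 for ACKR4, 1.32 to 1.56 for CD14 and 3.18 to 3.86 for SERPINA1. The 5 h differences of C5AR2 and SERPINA1 changed sign between settings, within -0.42 to 0.26 and -0.12 to 0.07. Calls over all probe sets numbered 1550 at 24 h, 87 at 5 h and 2551 for 24 h minus 5 h; with the replicate block they were 6452, 1056 and 7884, and fitted to the 6 arrays compared 792 at 24 h and 13 at 5 h. Centring each array on its median left 57 calls at 5 h (34 higher and 23 lower, against 42 and 45), 503 higher and 827 lower at 24 h (against 771 and 779), and 806 higher and 1608 lower for 24 h minus 5 h (against 1443 and 1108). Leaving out 1 array gave 304 to 1533 at 24 h, 15 to 126 at 5 h and 854 to 2429 for 24 h minus 5 h. The 18 calls among related genes at 24 h became 59 with the block, 8 in the fit to 6 arrays and 4 to 20 without 1 array. Of 24 calls of named and flanking genes 5 were kept in all alternatives run (C1S, CXCL3, CP, AKR1B1 and COL12A1), 0 were lost under the block, which added 8, and 0 changed sign. CXCL3 was run in 17 alternatives, against 18 for C1S and CP. The causes were not tested. Near the floor the pseudocount sets the size of a log2 difference, as for ACKR4, LBP, CXCL3 and the dimmer probe sets of SERPINA1 and CP.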
